A study of Mus musculus with 24 samples.

Results

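The comparison described here is satellite cells of mouse tibialis anterior muscle 8 days after injury against satellite cells 4 days after injury. It rests on 6 arrays of the 24 in the study, 3 per day, chosen by the sample titles. The other 18 arrays hold satellite cells on days 0 and 2 and endothelial cells on days 0, 2, 4 and 8, 3 in each group. All groups came from muscle that was recovered without injury (day 0) or after injection of cardiotoxin, a snake venom toxin that destroys muscle fibres and leaves their stem cells to rebuild them. The muscle was minced, digested with enzymes and sorted by flow cytometry. Satellite cells were the cells negative for CD45, Sca1 and CD31, positive for alpha7-integrin, and positive or low for CD34. Endothelial cells were negative for CD45 and positive for Sca1, CD34 and CD31. The labels name no strain, sex, age or transgene, and they call the replicates biological without saying how many animals each one holds. RNA was amplified from picogram amounts, labelled with biotin and hybridised to a mouse gene array.

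Satellite cells lie between a muscle fibre and its basement membrane and are the stem cells of skeletal muscle. After injury they leave rest, divide as myoblasts, and either differentiate and fuse into new fibres or return to rest under the new basement membrane. The new fibres first make embryonic forms of contractile and synaptic proteins, which later give way to adult forms.

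The titles and the source names agree for every array, but a separate time point field differs from the title in 5 of these 6 arrays, and in 18 of all 24, so groups follow the titles. The cell type field does not differ from the title in any of the 6, and does in 12 of the 24. The arrays were numbered day by day, and the effects of day and of processing order cannot be told apart. Values are log2 levels from the authors' RMA normalization, and the medians of the 6 arrays lie between 4.25 and 4.38, so a level near or below 4.38 is treated as near background. Correlations over all genes tested were 0.90 to 0.94 among the day 4 arrays, 0.91 to 0.94 among the day 8 arrays, and 0.85 to 0.92 between the days. The satellite cell marker Itga7, which encodes the integrin used in the sort, read 8.15, 8.48 and 8.38 on day 4 and 8.40, 8.70 and 8.29 on day 8. Day 8 replicate 1 differed from the other day 8 arrays in its muscle structure genes, while over all genes its mean correlation with them was 0.915, beside 0.924 and 0.928 for the others. The lowest limma array weight was that of day 4 replicate 1 (0.478), followed by day 8 replicate 1 (0.663), and the other 4 weights ran from 0.923 to 1.77. The mean level of the 30 measured adult sarcomere genes, 25 of them tested, was 6.45 on day 8 replicate 1. It was 8.18 and 8.32 on the other day 8 arrays and 6.60 to 6.82 on day 4. The arrays also carried markers of other cells, which are described with their values beneath the muscle genes. In sorted bulk samples, fewer cells of a type and less RNA per cell cannot be told apart.

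From day 4 to day 8, 163 of 14064 genes tested rose, or 1.16%, and 73 fell, or 0.519%. A gene was called when its adjusted p in limma (Benjamini-Hochberg over all genes tested) was under 0.05 and its log2 difference was at least 1 in size. The median difference over all genes tested was -0.01 on the log2 scale. Without adjustment, 1831 of the 14064 genes had a limma p under 0.05. Counts of list members at an unadjusted p are to be read beside that number. The 3 arrays of one day lay beyond the 3 of the other for 161 of the 163 genes that rose and 72 of the 73 that fell. Over all genes tested, 8.55% had all day 8 arrays above all day 4 arrays and 8.70% had them below. With day 8 replicate 1 left out, 280 genes rose and 88 fell. With day 8 replicate 2 left out, 69 rose and 41 fell, and with day 8 replicate 3 left out, 83 rose and 47 fell. Leaving out day 4 replicate 1 gave 92 that rose, and leaving out day 4 replicates 2 or 3 gave 126 or 118.

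**Figure D1:**
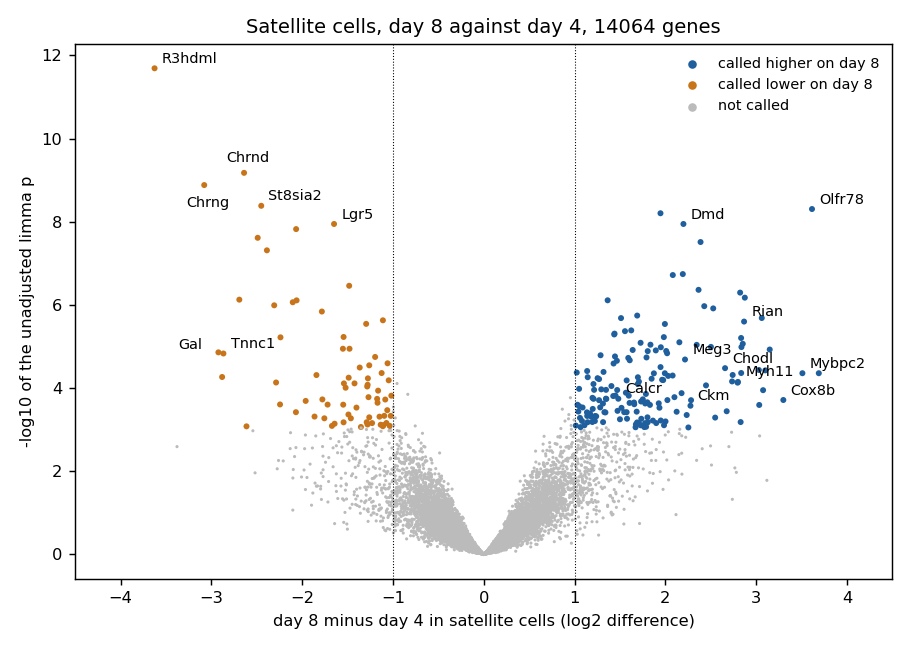
Each point is 1 of 14064 genes; the horizontal axis gives the log2 difference of day 8 minus day 4 in satellite cells and the vertical axis -log10 of the unadjusted limma p, with dotted lines at a log2 difference of 1 in either direction. Blue points are the 163 genes called higher on day 8 and orange points the 73 called lower; R3hdml, Chrng, Chrnd and St8sia2 stand at the upper left, and Olfr78 and Dmd at the upper right.

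Chrng and Chrnd, which encode subunits of the acetylcholine receptor, the channel that opens a muscle fibre to its nerve, were among the largest falls. Chrng, the gamma subunit that is used before birth and in regenerating fibres, read 9.10, 8.69 and 9.07 on day 4 and 5.93, 6.31 and 5.37 on day 8. Every day 8 array was below every day 4 array, and the fall was 8.45-fold (log2 difference -3.08, SE 0.30, adjusted p = 6.16e-06). Chrnd, the delta subunit, read 7.15, 6.61 and 6.92 on day 4 and 4.39, 3.95 and 4.42 on day 8. Its day 8 arrays were near background, and it fell by 2.64 (SE 0.25, adjusted p = 4.68e-06). Both subunits had low levels before injury, with Chrng at 4.62 ± 0.48 and Chrnd at 3.76 ± 0.16 on day 0 (SD, n = 3). Both calls were kept with each of the 6 arrays left out in turn.

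The remaining receptor subunits differed less or were too dim to test. Chrna1, the alpha subunit, read 9.87, 9.75 and 9.95 on day 4 and 9.26, 9.08 and 9.00 on day 8. These groups did not overlap, but the difference of -0.74 (SE 0.39) was not called (adjusted p = 0.443). Chrnb1, the beta subunit, differed by 0.21 (SE 0.40, adjusted p = 0.882), and its groups overlapped. Chrne, the epsilon subunit that replaces gamma in the adult receptor, lay near background on all 6 arrays, from 3.32 to 3.85, and was not tested. Of 16 tested genes of the receptor and the synapse, 2 fell and none rose, beside 0.519% of all genes that fell. The median difference of the 16 was -0.08.

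The promoters of these subunits are shown because the members of one receptor moved unequally. Each runs from 250 bases before to 50 bases after the gene start in RefSeq's GRCm38.p6 annotation, 5' to 3' on the gene's strand, with capitals at every CANNTG, the letters of an E-box, to which myogenic regulators of the MyoD family bind. The search covered both strands, since this motif reads alike on each. No promoter of Chrnd was printed. Chrng lies at chr1:87205561-87205860 on the plus strand, Chrna1 at chr2:73580289-73580588 on the minus strand, and Chrnb1 at chr11:69795888-69796187 and Chrne at chr11:70619145-70619444, both on the minus strand.
Chrng: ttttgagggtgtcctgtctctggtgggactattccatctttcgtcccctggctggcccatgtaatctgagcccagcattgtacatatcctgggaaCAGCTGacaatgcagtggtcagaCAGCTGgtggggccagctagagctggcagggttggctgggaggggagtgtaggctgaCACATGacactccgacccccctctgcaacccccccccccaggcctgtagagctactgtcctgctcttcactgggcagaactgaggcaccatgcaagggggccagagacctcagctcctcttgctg
Chrna1: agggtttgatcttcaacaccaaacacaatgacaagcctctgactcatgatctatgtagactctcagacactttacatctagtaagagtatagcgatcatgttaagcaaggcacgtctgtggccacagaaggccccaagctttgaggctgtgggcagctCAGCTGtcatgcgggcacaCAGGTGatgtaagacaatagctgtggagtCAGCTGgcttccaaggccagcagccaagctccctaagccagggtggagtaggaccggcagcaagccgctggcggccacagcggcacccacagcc
Chrnb1: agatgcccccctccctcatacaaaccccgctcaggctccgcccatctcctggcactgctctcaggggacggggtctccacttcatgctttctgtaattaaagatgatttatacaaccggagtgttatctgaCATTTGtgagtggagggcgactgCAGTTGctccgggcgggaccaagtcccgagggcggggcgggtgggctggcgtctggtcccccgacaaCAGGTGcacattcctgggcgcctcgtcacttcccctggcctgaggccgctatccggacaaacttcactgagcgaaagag
Chrne: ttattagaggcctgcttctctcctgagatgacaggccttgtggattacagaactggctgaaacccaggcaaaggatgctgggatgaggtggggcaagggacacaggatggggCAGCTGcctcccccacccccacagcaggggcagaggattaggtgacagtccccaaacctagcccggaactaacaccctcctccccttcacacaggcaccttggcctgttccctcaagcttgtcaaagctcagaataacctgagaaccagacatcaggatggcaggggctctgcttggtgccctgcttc
The Chrng window holds 3 matches, starting at -155, -132 and -75 from the gene start. The windows of Chrna1 and Chrnb1, neither of which was called, also hold 3 each, starting at -92, -73 and -44 and at -119, -96 and -29, and the Chrne window holds 1, at -138. Among 32851 promoters of the same length, 72.3% hold at least 1 match and 17.6% at least 3, so the matches describe the letters and mark no binding site. Windows without a match were not kept, so at least 1 in each was fixed beforehand.

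Embryonic forms of sarcomere proteins fell in some cases, and adult contractile genes rose on some day 8 arrays. Myh3, the embryonic myosin heavy chain, read 7.78, 5.59 and 6.21 on day 4 and 4.09, 4.04 and 5.86 on day 8. It fell by 1.86 (SE 0.45, adjusted p = 0.0348), although day 8 replicate 3 lay above day 4 replicate 2. That call was lost without day 4 replicate 1, day 4 replicate 3, day 8 replicate 1 or day 8 replicate 2, with an adjusted p of up to 0.19. Tnnc1, troponin C of slow and cardiac muscle, which regenerating fibres also make, read 8.84, 9.26 and 8.31 on day 4 and 4.42, 6.90 and 6.48 on day 8. It fell by 2.87 (SE 0.51, adjusted p = 0.00351), was lower on all 3 day 8 arrays, and kept its call with each array left out. Tnnt2, cardiac troponin T, and Actc1, cardiac actin, are made by young fibres too. Neither was called, with differences of -0.82 (SE 0.48, adjusted p = 0.506) and 0.85 (SE 0.55, adjusted p = 0.556). Myl1, an essential light chain of fast myosin that stands on the embryonic list, rose by 2.18 (SE 0.47, adjusted p = 0.015), with an adjusted p of up to 0.117 when day 4 replicates 1 or 3 or day 8 replicates 2 or 3 were left out. Of the 14 tested genes of that list, 2 fell, or 14.3% beside 0.519% of all genes. In the other direction 1 rose, or 7.1% beside 1.16%, and the median difference was -0.11. With the 6 arrays fitted alone, and with the 12 satellite cell arrays, none of the 14 was called lower. Myh8, the perinatal myosin heavy chain, was not tested. Its levels ran from 2.66 to 3.77 on day 4 and from 3.11 to 5.31 on day 8.

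Of 25 tested adult fast and slow sarcomere genes, 4 rose, or 16.0% beside 1.16% of all genes, and none fell, with a median difference of 0.89 and 21 above 0. Mybpc2, fast myosin-binding protein C, read 3.00, 4.33 and 2.97 on day 4 and 4.41, 8.11 and 8.30 on day 8. It rose by 3.51 (SE 0.68, adjusted p = 0.00738). Ckm, the muscle creatine kinase, read 6.92, 7.96 and 7.28 on day 4 and 7.81, 10.48 and 10.70 on day 8. It rose by 2.28 (SE 0.52, adjusted p = 0.0228), or 4.84-fold, with day 8 replicate 1 inside the day 4 range. Pygm, the muscle glycogen phosphorylase, rose by 1.98 (SE 0.40, adjusted p = 0.00917), and Myoz1, a Z-disc protein of fast fibres, by 2.25 (SE 0.58, adjusted p = 0.0496). Day 8 replicates 2 and 3 were high for each of these genes, and day 8 replicate 1 was near the day 4 arrays for Mybpc2, Ckm and Myoz1. Without day 8 replicate 1, 13 of the 25 rose. Without day 8 replicate 2, and without day 8 replicate 3, none rose, and leaving out day 4 replicates 1, 2 or 3 gave 1, 4 or 2. With the 6 arrays fitted alone, and with the 12 satellite cell arrays, none of the 25 was called higher.

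The same split between day 8 arrays was seen in genes with high levels on both days. Acta1, skeletal actin, read 11.03, 10.90 and 10.58 on day 4 and 10.25, 12.24 and 12.30 on day 8. Day 8 replicate 1 was the lowest of the 6 arrays, and the difference of 0.76 (SE 0.47) was not called (adjusted p = 0.537). Mylpf, the regulatory light chain of fast myosin, differed by 0.93 (SE 0.55, adjusted p = 0.506), and Tnnt3, fast troponin T, by 0.89 (SE 0.57, adjusted p = 0.547). Myh4, the fastest adult myosin heavy chain, read 5.71, 6.51 and 6.72 on day 4 and 5.56, 8.87 and 8.69 on day 8, a difference of 1.40 (SE 0.63, adjusted p = 0.345). In endothelial cells of the same days the difference was 1.64 for Acta1, 1.47 for Mylpf and 1.73 for Tnnt3, none of them called.

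**Figure D2:**
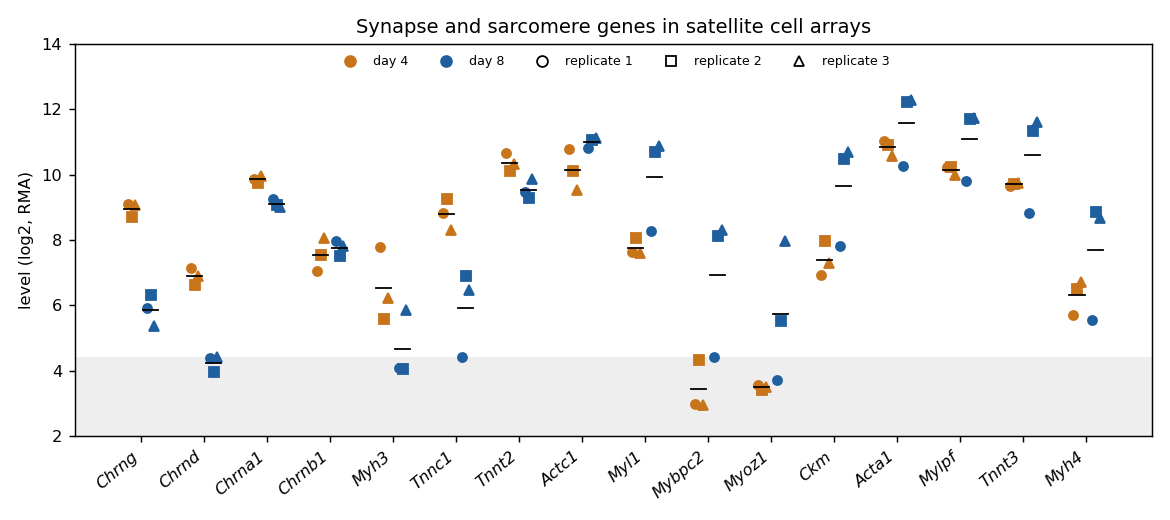
Log2 level of 16 synapse and sarcomere genes on each array of day 4 (orange) and day 8 (blue), with the marker shape giving the replicate, a black line at each group's mean and the grey band below the highest array median (4.38). Chrng and Chrnd are lower on all 3 day 8 arrays, and for Mybpc2, Ckm, Acta1, Tnnt3 and Myh4 the circle of day 8 replicate 1 lies apart from the other day 8 arrays.

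Genes that assemble and anchor the sarcomere showed the same split between the day 8 arrays. Of 33 tested, 5 rose, or 15.2% beside 1.16% of all genes, and none fell, with a median difference of 0.72. Myot, the Z-disc protein myotilin, read 3.67, 4.52 and 4.85 on day 4 and 4.88, 8.66 and 8.72 on day 8, and rose by 3.08 (SE 0.65, adjusted p = 0.013). Tmod4, a cap of thin filaments, rose by 1.99 (SE 0.39, adjusted p = 0.00738), Hspb7, a small heat shock protein of muscle, by 1.93 (SE 0.45, adjusted p = 0.0246), and Lmod2, which lengthens thin filaments, by 1.75 (SE 0.39, adjusted p = 0.0186). Trim55, a ubiquitin ligase of the sarcomere, read 5.31, 4.93 and 4.85 on day 4 and 6.54, 6.04 and 5.66 on day 8. It rose by 1.05 (SE 0.22, adjusted p = 0.0126) and was highest on day 8 replicate 1. Without day 8 replicate 1, 13 of the 33 rose. Without day 8 replicate 2, and without day 8 replicate 3, the count was 1, and without day 4 replicates 1, 2 or 3 it was 2, 3 or 3. It was 0 with the 6 arrays fitted alone and 0 with the 12 satellite cell arrays.

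Of 25 tested genes of calcium release and excitation, 1 rose, or 4.0% beside 1.16% of all genes, and none fell. The median difference was 0.37. Casq2, a calcium store protein of slow and cardiac muscle, rose by 1.77 (SE 0.45, adjusted p = 0.0491), and the call was lost when any of 5 arrays was left out, with an adjusted p of up to 0.238. Only without day 8 replicate 1 was it kept. Casq2 was at 9.70 ± 0.56 on day 0 (SD, n = 3), beside means of 7.02 on day 4 and 8.79 on day 8. Dmd, which encodes dystrophin, the link between the fibre's actin and its membrane complex, read 4.23, 4.90 and 4.16 on day 4 and 6.09, 6.82 and 6.98 on day 8. All 3 day 8 arrays were high, day 8 replicate 1 included. Dmd rose by 2.20 (SE 0.24, adjusted p = 1.99e-05), a call kept with each array left out, and its day 0 level was 7.93 ± 0.18 (SD, n = 3). Ano5, a membrane protein mutated in a limb-girdle muscular dystrophy, read 6.43, 7.57 and 7.71 on day 4 and 5.85, 6.14 and 5.62 on day 8. It fell by 1.37 (SE 0.26, adjusted p = 0.00624), or 2.58-fold, and kept its call with each array left out. Among 14 tested genes of the dystrophin complex and the muscle membrane, Dmd was the member that rose and Ano5 the member that fell. These are 7.1% each way, beside 1.16% and 0.519% of all genes, and the median difference was 0.44.

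The transcription factors that define the myogenic lineage were not called between the days. Pax7, the satellite cell factor, read 8.06, 9.00 and 8.30 on day 4 and 8.86, 7.40 and 8.13 on day 8, and the groups overlapped (difference -0.32, SE 0.37, adjusted p = 0.782). Myf5 differed by 0.14 (SE 0.38, adjusted p = 0.924) and Myod1, the factor of activated myoblasts, by 0.40 (SE 0.29, adjusted p = 0.604). Myog, the factor of differentiating myocytes, read 9.72, 9.66 and 9.83 on day 4 and 10.33, 10.50 and 10.44 on day 8. Its groups did not overlap and all 3 day 8 arrays were higher, but the difference of 0.69 (SE 0.34) was not called (adjusted p = 0.407). The day 0 level of Myog was 5.45 ± 0.28 (SD, n = 3). Of 24 tested myogenic regulators, 1 rose, or 4.2% beside 1.16% of all genes, and none fell, with a median difference of 0.00. It was Sox8, a Sox factor expressed in satellite cells, which rose by 1.55 (SE 0.37, adjusted p = 0.0292). Day 8 replicate 1 was the lowest of its day 8 arrays at 6.44, and the call was lost without day 4 replicates 1 or 3 or day 8 replicates 2 or 3, with an adjusted p of up to 0.174.

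None of 30 tested genes of fusion and adhesion was called in limma. An unadjusted p under 0.05 was found for 6, beside 1831 of all 14064 genes, and the median difference of the 30 was 0.18. Mymk, the membrane protein that drives myoblast fusion, read 9.73, 8.71 and 9.27 on day 4 and 9.37, 9.38 and 9.72 on day 8 (difference 0.25, SE 0.35, adjusted p = 0.83). Mymx, its partner peptide, differed by -0.02 (SE 0.26, adjusted p = 0.983). Cdh15, the cadherin of muscle cells, read 8.25, 8.77 and 8.70 on day 4 and 8.15, 7.31 and 7.50 on day 8 (difference -0.92, SE 0.26, adjusted p = 0.0759). Myof, a ferlin of membrane fusion and repair, had an adjusted p of 0.0466 and a difference of -0.99 (SE 0.25), just under the size a call required. It was 8.37 to 8.41 on the day 4 arrays and 7.03 to 7.76 on the day 8 arrays.

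Several genes tied to satellite cell rest rose, among them Chodl, Calcr and Chrdl2. Of 45 tested, 9 rose, or 20.0% beside 1.16% of all genes, and 1 fell, or 2.2% beside 0.519%. The median difference was 0.36. On each array the mean level of the list was 6.78 to 7.12 on day 4 and 7.39 to 7.58 on day 8, below the 7.89 to 7.94 of the day 0 arrays. The count was 4 to 8 with each array left out, and was 4 without day 4 replicate 1 and without day 4 replicate 3. It was 1 with the 6 arrays fitted alone and 2 with the 12 satellite cell arrays. Chodl, a membrane lectin of resting satellite cells, read 4.99, 7.46 and 7.91 on day 4 and 9.76, 9.47 and 9.10 on day 8. It rose by 2.66 (SE 0.50, adjusted p = 0.00637), or 6.31-fold, toward a day 0 level of 10.55 ± 0.22 (SD, n = 3). Day 4 replicate 1 was far below the other day 4 arrays, and without it the difference was 1.76 and still called.

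Calcr, the calcitonin receptor that holds satellite cells at rest, read 3.83, 4.32 and 4.33 on day 4 and 6.36, 5.52 and 5.03 on day 8. It rose by 1.48 (SE 0.33, adjusted p = 0.0184) from background, beside a day 0 level of 6.79 ± 0.11. Chrdl2, a secreted BMP antagonist of resting cells, read 4.16, 4.38 and 4.02 on day 4 and 6.43, 5.11 and 5.30 on day 8. It rose by 1.43 (SE 0.31, adjusted p = 0.0168), beside 9.02 ± 0.71 on day 0, so its day 8 arrays remained well below the uninjured level. Both genes were highest on day 8 replicate 1, the array with the lowest adult sarcomere genes. Without that array the differences were 1.12 for Calcr and 1.02 for Chrdl2, with adjusted p-values of 0.0761 and 0.067. The Calcr call was also lost without day 4 replicate 1 or day 8 replicate 2, and the Chrdl2 call without day 4 replicate 1 or 3.

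Bmp4, a BMP ligand, rose by 2.00 (SE 0.50, adjusted p = 0.0413), and the call was kept only without day 4 replicate 2. Ndrg2, a gene of differentiation and growth arrest, rose by 1.66 (SE 0.37, adjusted p = 0.022), and was kept without day 4 replicate 2 and without day 8 replicate 1. Rgs5, a regulator of G protein signals that is also a pericyte marker, rose by 1.93 (SE 0.43, adjusted p = 0.0213). Tenm4, a teneurin, and Gas1, a surface protein of growth arrest, completed the list of risen genes with Meg3 and are named after their values were seen. They rose by 1.59 (SE 0.29, adjusted p = 0.00414) and 1.20 (SE 0.26, adjusted p = 0.0179). The Rgs5 call was lost without day 4 replicates 1 or 3 or day 8 replicates 2 or 3 (adjusted p up to 0.112), and the Gas1 call without day 4 replicates 2 or 3 or day 8 replicate 1 (adjusted p up to 0.067). Bmp4 and Ndrg2 reached adjusted p-values of 0.155 and 0.147 when an array was left out. Lgr5, a receptor for R-spondin that marks stem cells in several tissues, went the other way. It read 4.85, 4.53 and 4.70 on day 4 and 3.00, 3.14 and 2.99 on day 8, and fell by 1.65 (SE 0.18, adjusted p = 1.99e-05) to below the array medians, as on day 0 (3.06 ± 0.07). Spry1, an inhibitor of FGF signals at rest, read 5.93, 8.00 and 7.48 on day 4 and 8.41, 8.05 and 7.64 on day 8, and was not called (difference 0.90, SE 0.44, adjusted p = 0.39).

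**Figure D3:**
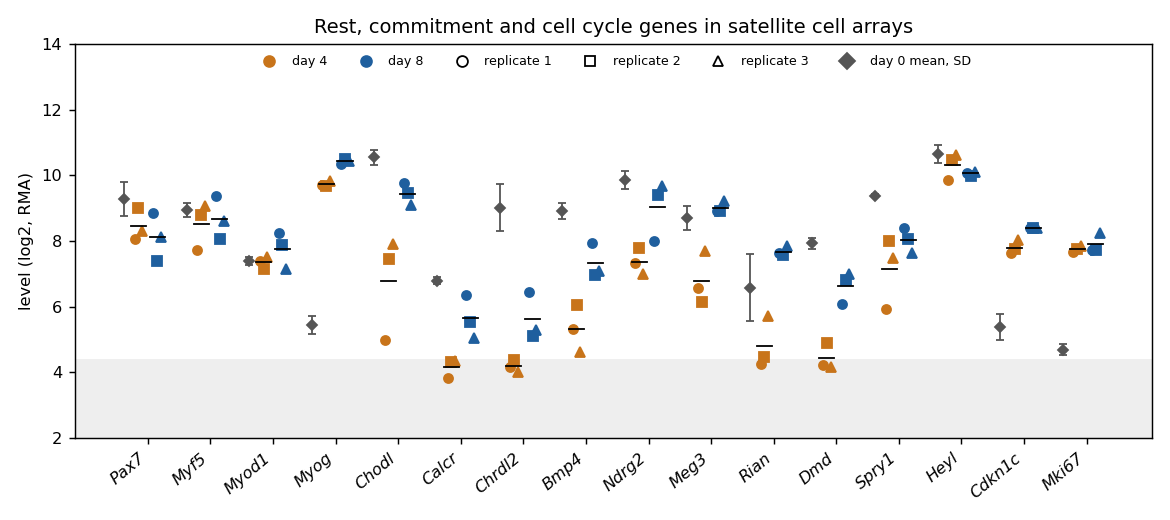
Log2 level of 16 genes of rest, commitment and the cell cycle on each array of day 4 (orange) and day 8 (blue), with replicate by marker shape, group means as black lines, and the day 0 mean with its SD (n = 3) as grey diamonds; the grey band lies below the highest array median (4.38). Chodl, Calcr, Chrdl2 and Dmd lie between the day 4 and day 0 levels on day 8, and Myog and Mki67 are far above their day 0 means on both days.

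Proliferation genes did not separate the days. None of 48 tested genes of mitosis and of 46 of DNA replication was called in limma. Of them, 3 and 5 had an unadjusted p under 0.05, beside 1831 of all 14064 genes. Their median differences were -0.03 and -0.11. The mean level of the mitosis list was 6.13 to 6.23 on the day 4 arrays and 6.02 to 6.16 on the day 8 arrays, against 3.97 to 4.19 on day 0. Mki67, a marker of dividing cells, read 7.67, 7.76 and 7.85 on day 4 and 7.71, 7.72 and 8.24 on day 8 (difference 0.13, SE 0.33, adjusted p = 0.914). Ccna2, cyclin A, differed by -0.04 (SE 0.32, adjusted p = 0.976) and Cdk1, the mitotic kinase, by 0.65 (SE 0.49, adjusted p = 0.625). Cdkn1a, the inhibitor p21, read 10.34, 9.96 and 9.92 on day 4 and 9.74, 9.43 and 9.69 on day 8 (difference -0.45, SE 0.32, adjusted p = 0.598). Cdkn1c, the inhibitor p57, was 8.38 on all 3 day 8 arrays and 7.62, 7.74 and 8.03 on day 4 (difference 0.58, SE 0.26, adjusted p = 0.326). Ccnd1, cyclin D1, was not called either (difference 0.47, SE 0.28, adjusted p = 0.517). Ccnd2, cyclin D2, read 5.33, 5.32 and 5.00 on day 4 and 5.97, 7.77 and 6.73 on day 8, and rose by 1.61 (SE 0.36, adjusted p = 0.021). That call was lost when any array but day 8 replicate 1 was left out, with an adjusted p of up to 0.153. Ribosome biogenesis had no called gene among 41 tested, 2 with an unadjusted p under 0.05 in limma, and a median difference of 0.05.

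Among signalling genes, Tgfb1 and Lgr5 fell and Ltbp4, Bmp4, Chrdl2 and Ror1 rose. None of 27 tested Notch pathway genes was called in limma, and the median difference was 0.16. An unadjusted p under 0.05 was found for 4 of them, beside 1831 of all 14064 genes. Heyl and Hey1, targets of Notch in satellite cells, differed by -0.25 (SE 0.36, adjusted p = 0.832) and -0.08 (SE 0.36, adjusted p = 0.952). Jag1, a Notch ligand, had day 8 arrays of 7.01, 7.45 and 7.10 above day 4 arrays of 5.48, 6.51 and 6.08 and an adjusted p of 0.0855 (difference 1.16, SE 0.33). Hes6, a Hes factor that favours differentiation, had all day 8 arrays below all day 4 arrays and an adjusted p of 0.0822 (difference -0.69, SE 0.20). Of 40 tested genes of BMP, TGF-beta and myostatin signalling, 3 rose (7.5%) and 1 fell (2.5%), beside 1.16% and 0.519% of all genes. The gene that fell was Tgfb1, the ligand TGF-beta 1, which read 8.54, 8.63 and 8.31 on day 4 and 7.50, 6.72 and 7.41 on day 8. It fell by 1.28 (SE 0.26, adjusted p = 0.0105), or 2.43-fold, and its adjusted p was 0.0976 without day 8 replicate 2. Ltbp4, which holds latent TGF-beta in the matrix, rose by 1.64 (SE 0.29, adjusted p = 0.00322), or 3.12-fold, on arrays that ran from 7.18 to 7.22 on day 4 and from 8.77 to 8.94 on day 8. Bmp4 and Chrdl2, described with the genes of rest, were the other members that rose. Among 22 tested Wnt genes 1 fell and 1 rose, 4.5% each way beside 0.519% and 1.16% of all genes. Lgr5 was the gene that fell, and Ror1, a receptor for Wnt5a, rose by 1.58 (SE 0.39, adjusted p = 0.0371). The Ror1 call was lost without day 4 replicate 1 or day 8 replicates 2 or 3, with an adjusted p of up to 0.195. None of 26 tested genes of FGF, HGF and Sprouty was called in limma, and 3 had an unadjusted p under 0.05.

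Of 30 tested IGF and imprinted growth genes, 2 rose and 2 fell, or 6.7% each way beside 1.16% and 0.519% of all genes. These counts were 2 to 3 and 2 with each array left out. With the 6 arrays fitted alone they were 1 and 0, and with the 12 satellite cell arrays 2 and 2. Rian, a maternally expressed noncoding RNA, read 4.25, 4.45 and 5.72 on day 4 and 7.63, 7.56 and 7.83 on day 8. It rose by 2.87 (SE 0.45, adjusted p = 0.00114). Its day 0 level was 6.58 ± 1.02 (SD, n = 3), and the difference of day 8 from day 0, 1.10, was not called (limma adjusted p = 0.142). Meg3, a noncoding RNA of the same imprinted cluster, read 6.57, 6.13 and 7.68 on day 4 and 8.90, 8.92 and 9.21 on day 8, and rose by 2.22 (SE 0.40, adjusted p = 0.00443), or 4.65-fold. All day 8 arrays of both lay above all day 4 arrays, and both calls were kept with each array left out. Slc38a4, an imprinted amino acid transporter, read 7.91, 8.62 and 8.52 on day 4 and 6.43, 5.51 and 6.92 on day 8. It fell by 2.06 (SE 0.30, adjusted p = 0.00052), or 4.17-fold. Hmga2, a chromatin protein of growing tissue, fell by 1.55 (SE 0.27, adjusted p = 0.00313). Igf2, a growth factor of regenerating muscle, read 8.74, 8.87 and 9.18 on day 4 and 9.77, 9.63 and 9.72 on day 8 and was not called (difference 0.78, SE 0.30, adjusted p = 0.25). H19, the noncoding RNA beside it, differed by 0.03 (SE 0.22, adjusted p = 0.976), and Dlk1, an imprinted gene of the Meg3 cluster, by 0.66 (SE 0.24, adjusted p = 0.208).

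The array also carries probe sets for miRNA genes, which do not measure the mature miRNA separately from its precursor. Of 4 called, Mir3109 and Mir188 fell and Mir3070b and Mir453 rose. The latter pair was named after values were seen and lies on chromosome 12 with Meg3 and Rian. Mir3109 read 6.64, 6.98 and 5.97 on day 4 and 3.96, 3.43 and 3.56 on day 8, and fell by 2.88 (SE 0.57, adjusted p = 0.00848). Mir188 read 4.95, 4.82 and 6.80 on day 4 and 3.61, 3.55 and 2.54 on day 8, and fell by 2.29 (SE 0.46, adjusted p = 0.0099), a call lost without day 4 replicate 3 or day 8 replicate 3 (adjusted p up to 0.0771). Mir3070b and Mir453 rose by 1.73 (SE 0.39, adjusted p = 0.0199) and 2.83 (SE 0.71, adjusted p = 0.0421). Mir3070b read 3.13, 3.96 and 2.71 on day 4 and 4.79, 5.34 and 4.87 on day 8. Mir453 read 2.67, 2.36 and 3.04 on day 4 and 3.44, 6.17 and 6.95 on day 8, with day 8 replicate 1 near background. Whether these calls were kept with an array left out is not given here. RefSeq's mature sequences of the pair that fell and of the pair that rose are given 5' to 3' with the seed, bases 2 to 8, in capitals, to show that no seed is shared among them.
mmu-miR-3109-5p: aAUGGAUGcgaugguucccaugcu
mmu-miR-3109-3p: uAGGGCCAucucauccagaua
mmu-miR-188-5p: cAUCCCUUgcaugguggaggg
mmu-miR-188-3p: cUCCCACAugcaggguuugca
mmu-miR-3070-5p: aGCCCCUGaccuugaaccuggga
mmu-miR-3070-2-3p: uGGUGCUAuggucagggguaga
mmu-miR-453: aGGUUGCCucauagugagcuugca

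Few metabolic genes were called. Of 57 tested genes of oxidative phosphorylation, 1 rose, or 1.8% beside 1.16% of all genes, with a median difference of 0.10. It was Cox8b, a muscle form of a cytochrome oxidase subunit, which read 5.92, 6.84 and 5.98 on day 4 and 7.46, 10.46 and 10.72 on day 8. It rose by 3.30 (SE 0.73, adjusted p = 0.0188), or 9.84-fold, and was lowest on day 8 replicate 1, as the adult sarcomere genes were. The call was lost without day 4 replicates 1 or 3 or day 8 replicates 2 or 3, with an adjusted p of up to 0.129. Of 33 genes of the TCA cycle and fatty acid oxidation, 2 rose, or 6.1% beside 1.16% of all genes. Ppargc1a, the coactivator of mitochondrial genes, rose by 1.32 (SE 0.25, adjusted p = 0.00738) on arrays of 3.26, 3.01 and 2.88 on day 4 and 4.04, 4.12 and 4.93 on day 8, mostly near background. Cd36, a fatty acid transporter that capillaries also carry, rose by 1.21 (SE 0.27, adjusted p = 0.0184). The Ppargc1a call was lost without day 8 replicate 3 (adjusted p = 0.0605), and that of Cd36 without day 4 replicates 2 or 3 or day 8 replicates 2 or 3 (adjusted p up to 0.127). Among 24 genes of glycolysis and glycogen, Pygm was the member that rose, or 4.2% beside 1.16% of all genes. Ppp1r3c, which targets a phosphatase to glycogen, read 3.41, 3.89 and 3.17 on day 4 and 5.78, 7.06 and 6.81 on day 8, and rose by 3.06 (SE 0.47, adjusted p = 0.001).

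Matrix genes were little changed by the call rule. Of 46 tested collagens and fibrillar matrix genes, 1 fell, or 2.2% beside 0.519% of all genes, and none rose, with a median difference of 0.31. Col1a1 and Col3a1, chains of the main fibrillar collagens, had all day 8 arrays above all day 4 arrays with differences of 0.72 (SE 0.42, adjusted p = 0.506) and 0.85 (SE 0.26, adjusted p = 0.104). Postn, periostin, differed by 0.35 (SE 0.43, adjusted p = 0.797) and Tnc, tenascin C, by -0.24 (SE 0.38, adjusted p = 0.852). Of 19 tested basement membrane genes 1 rose, or 5.3% beside 1.16% of all genes. All day 8 arrays lay above all day 4 arrays for 11, or 57.9% beside 8.55% of all genes, with a median difference of 0.81. The gene that rose was Lamb2, the laminin beta 2 chain found at synapses and vessels, which read 6.85, 6.42 and 5.96 on day 4 and 7.48, 8.08 and 7.71 on day 8 (difference 1.35, SE 0.28, adjusted p = 0.013). Its call was lost without day 4 replicate 3 or day 8 replicate 2, with an adjusted p of up to 0.0976. Timp1, an inhibitor of matrix proteases, read 8.13, 8.71 and 8.78 on day 4 and 7.54, 7.60 and 6.69 on day 8, and fell by 1.26 (SE 0.31, adjusted p = 0.0356). It was the member that fell among 28 tested genes of matrix proteases and their inhibitors, or 3.6% beside 0.519% of all genes. Its call was lost without day 4 replicates 2 or 3 or day 8 replicates 2 or 3.

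Markers of pericytes and smooth muscle, cells of the vessel wall that a gate negative for CD31 does not remove, rose in the largest share of the 42 lists counted. Of 20 tested, 9 rose, or 45.0% beside 1.16% of all genes. All day 8 arrays lay above all day 4 arrays for 19, or 95% beside 8.55% of all genes, and the median difference was 1.81. The mean level of the list was 6.71 to 6.94 on day 4, 8.03 to 8.82 on day 8, and 8.87 to 9.67 on the uninjured satellite cell arrays. Myh11, smooth muscle myosin, read 6.42, 6.31 and 6.20 on day 4 and 9.25, 9.20 and 8.88 on day 8, and rose by 2.80 (SE 0.57, adjusted p = 0.00968), or 6.96-fold. Cnn1, calponin, rose by 2.83 (SE 0.55, adjusted p = 0.00738) on day 8 arrays of 7.76, 7.60 and 5.97. Vtn, vitronectin, rose by 2.67 (SE 0.63, adjusted p = 0.029). Kcnj8 and Abcc9, which form a potassium channel of pericytes, rose by 2.45 (SE 0.50, adjusted p = 0.0108) and 2.28 (SE 0.51, adjusted p = 0.0188). Acta2, smooth muscle actin, which myoblasts also make, was 10.37 to 10.44 on day 4 and 10.77 to 11.09 on day 8 and was not called (difference 0.47, SE 0.49, adjusted p = 0.755). The count of 9 became 4, 6 or 4 without day 4 replicates 1, 2 or 3, and 9, 1 or 3 without day 8 replicates 1, 2 or 3. It was 3 with the 6 arrays fitted alone and 2 with the 12 satellite cell arrays. Of the rest genes that rose, 1 of 9, Rgs5, is also on the pericyte list, and the part of vessel wall markers in the rise of the others was not tested.

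Dmd and the smooth muscle light chain Myl9 are shown with their promoters because the factor SRF, which drives skeletal and smooth muscle genes, binds the CArG box, marked in capitals where a script found it on either strand. The Dmd window lies at chrX:82948620-82948919 on the plus strand and the Myl9 window at chr2:156775214-156775513 on the plus strand of GRCm38.p6.
Dmd: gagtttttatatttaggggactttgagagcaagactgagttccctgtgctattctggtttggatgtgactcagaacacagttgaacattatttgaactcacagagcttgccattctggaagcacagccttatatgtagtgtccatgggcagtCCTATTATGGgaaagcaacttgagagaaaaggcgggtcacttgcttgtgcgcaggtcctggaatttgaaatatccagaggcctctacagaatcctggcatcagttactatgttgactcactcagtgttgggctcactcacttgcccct
Myl9: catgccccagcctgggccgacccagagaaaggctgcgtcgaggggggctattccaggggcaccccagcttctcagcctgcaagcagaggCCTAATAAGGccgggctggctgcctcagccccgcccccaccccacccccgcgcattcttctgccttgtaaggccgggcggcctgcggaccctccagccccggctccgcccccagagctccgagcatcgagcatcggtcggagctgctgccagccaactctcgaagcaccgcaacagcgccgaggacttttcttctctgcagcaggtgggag
Each holds 1 match, starting at -98 in Dmd and at -161 in Myl9. Windows without a match were not kept, so a match in each was fixed beforehand. Over all 32851 promoters, 1.63% hold at least 1, which is background and no comparison with these windows. The match is a description of the letters.

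Other genes with the largest rises were low on day 4 and high on day 0. Olfr78 and Olfr558, members of the odorant receptor family that vessel walls also express, rose by 3.61 (SE 0.38, adjusted p = 1.39e-05) and 3.69 (SE 0.72, adjusted p = 0.00738). Olfr78 read 2.95, 2.77 and 2.72 on day 4 and 5.82, 6.79 and 6.67 on day 8, beside 7.40 ± 1.16 on day 0 (SD, n = 3). Ano1, a chloride channel activated by calcium, read 3.84, 4.60 and 4.18 on day 4 and 5.77, 8.05 and 8.24 on day 8, and rose by 3.15 (SE 0.55, adjusted p = 0.00319). S1pr3, a receptor for sphingosine 1-phosphate, rose by 3.10 (SE 0.59, adjusted p = 0.00701), and Rgs4, a regulator of G protein signals, by 2.87 (SE 0.41, adjusted p = 0.00052). Plxdc1 rose by 3.03 (SE 0.69, adjusted p = 0.022). Within this group, day 8 replicate 1 was the lowest day 8 array for each of Olfr78, Olfr558, Ano1, S1pr3, Rgs4 and Plxdc1. The calls of Olfr78, Olfr558, Ano1 and Rgs4 were kept with each array left out, while S1pr3 had an adjusted p of 0.0572 without day 8 replicate 2, and Plxdc1 one of up to 0.13 when any of 4 arrays was left out.

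Among markers of leukocytes, which the CD45 gate should remove, the macrophage list had lower values on day 8 with no member called lower in limma and 16 lower at an unadjusted p under 0.05. Of 31 tested, 30 had a difference below 0 and 19 had all day 8 arrays below all day 4 arrays, or 61.3% beside 8.70% of all genes, with a median difference of -1.43. The mean level of the list was 7.72, 7.11 and 6.56 on day 4 and 6.21, 5.02 and 6.23 on day 8, and 3.82 to 4.31 on the uninjured arrays. Ptprc, which encodes CD45 itself, read 7.39, 6.46 and 4.74 on day 4 and 4.90, 3.41 and 5.86 on day 8 (difference -1.47, SE 0.79, adjusted p = 0.45). Ctss, a cathepsin of macrophages, read 10.64, 9.95 and 9.44 on day 4 and 8.96, 7.39 and 9.41 on day 8 (difference -1.43, SE 0.62, adjusted p = 0.309). Lyve1, a marker of lymphatic vessels and of some resident macrophages, rose instead, by 1.55 (SE 0.25, adjusted p = 0.00172), a call kept with each array left out. Ccl8, a chemokine of macrophages, read 8.39, 7.69 and 5.95 on day 4 and 5.35, 3.88 and 4.97 on day 8, and fell by 2.61 (SE 0.67, adjusted p = 0.0478). It was the member that fell among 33 tested inflammatory genes, or 3.0% beside 0.519% of all genes. The median difference of the 33 was -0.58, and the Ccl8 call was lost without any of 4 arrays. S100a8, a neutrophil gene, differed by -2.13 (SE 0.57, adjusted p = 0.0587). The part of leukocyte RNA in the falls of other genes was not tested.

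Endothelial markers were present in the satellite cell arrays of both days. None of 30 tested was called in limma, and 2 had an unadjusted p under 0.05, beside 1831 of all 14064 genes. A difference above 0 was seen for 26, and the median was 0.44. Pecam1, which encodes CD31, read 9.60, 8.77 and 8.92 on day 4 and 9.10, 9.99 and 9.56 on day 8 (difference 0.46, SE 0.38, adjusted p = 0.668), although the gate was negative for CD31. The mean level of the list was 6.57 to 7.06 on day 4 and 6.56 to 7.48 on day 8, against 5.70 to 5.84 on day 0. Of 20 tested fibroblast markers 1 rose, or 5.0% beside 1.16% of all genes. It was Dpt, dermatopontin, which read 7.78, 7.00 and 8.07 on day 4 and 10.10, 9.53 and 9.93 on day 8, a rise of 2.23 (SE 0.54, adjusted p = 0.033) that was called only without day 4 replicate 3 when arrays were left out. Pdgfra, the usual marker of fibro-adipogenic cells, was at or below 3.62 on all 6 arrays and was not tested. Of 10 tendon cell markers 1 rose, or 10.0% beside 1.16% of all genes. It was Tnmd, tenomodulin, which rose by 2.84 (SE 0.49, adjusted p = 0.003) and kept its call with each array left out. Of 14 Schwann cell markers 2 rose, or 14.3% beside 1.16% of all genes. Pmp22, a myelin protein that fibroblasts also make, and Gfra3, a receptor subunit for artemin, rose by 1.33 (SE 0.31, adjusted p = 0.0292) and 1.11 (SE 0.28, adjusted p = 0.0466). The Pmp22 call was lost with each array left out, and the Gfra3 call with any array but day 8 replicate 1.

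The remaining lists held few or no called genes. None was called in limma among 35 tested interferon response genes, 15 of MHC class I, 31 immediate early and dissociation genes, 20 of cholesterol synthesis and 27 of endoplasmic reticulum stress. At an unadjusted p under 0.05 they held 1, 3, 7, 3 and 3, beside 1831 of all 14064 genes. None was called among 14 neutrophil, 10 lymphocyte, 14 MHC class II, 8 adipocyte and 4 erythroid markers, where 2, 1, 0, 0 and 0 passed an unadjusted p under 0.05. Of 28 lysosome genes 1 rose, or 3.6% beside 1.16% of all genes.

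**Figure D4:**
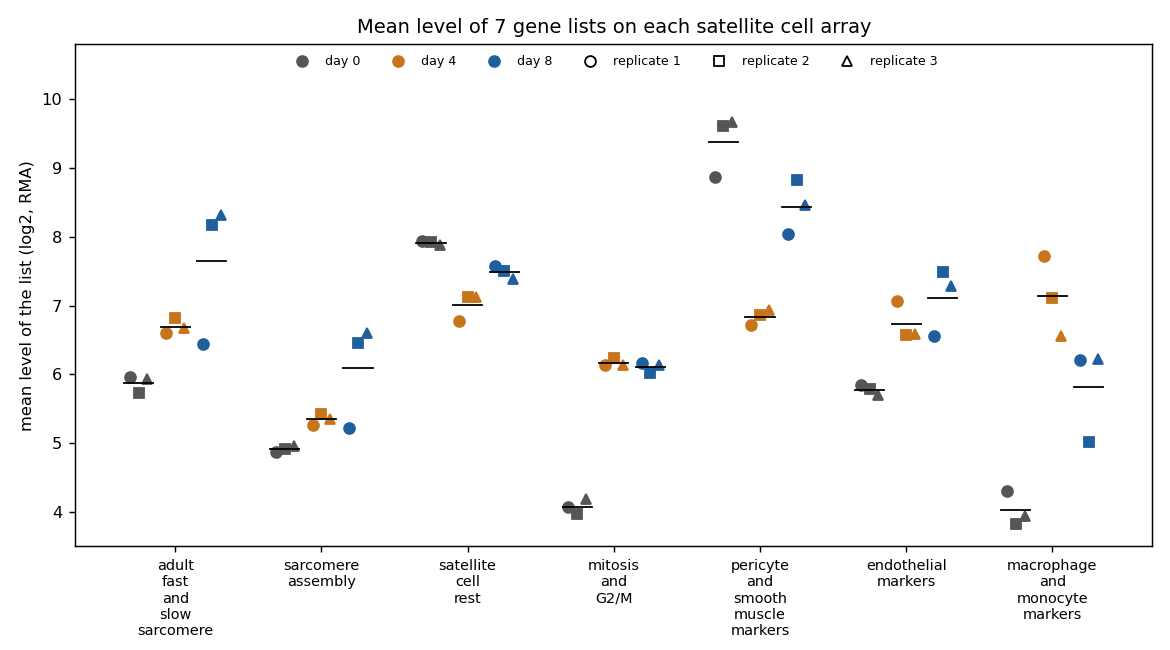
Mean log2 level of the measured genes, tested or not, of 7 lists on each satellite cell array of day 0 (grey), day 4 (orange) and day 8 (blue), with the replicate by marker shape and group means as black lines. Adult sarcomere and sarcomere assembly genes are high on day 8 replicates 2 and 3 and not on replicate 1; rest and vessel wall genes are higher on all day 8 arrays than on all day 4 arrays; mitosis genes differ little between days 4 and 8; macrophage genes are highest on day 4.

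The largest fall of all was that of R3hdml, a gene for a secreted protein of the peptidase inhibitor family. It read 7.39, 7.18 and 7.74 on day 4 and 3.71, 3.40 and 4.34 on day 8, and fell by 3.63 (SE 0.25, adjusted p = 2.87e-08) to the background level it had on day 0 (4.13 ± 0.27). St8sia2, the enzyme that adds polysialic acid to NCAM in developing muscle and nerve, read 7.12, 7.08 and 7.33 on day 4 and 5.08, 4.42 and 4.67 on day 8, a fall of 2.45 (SE 0.25, adjusted p = 1.39e-05). Gal, the neuropeptide galanin, read 9.55, 8.53 and 9.34 on day 4 and 6.96, 5.73 and 5.97 on day 8, a fall of 2.92 (SE 0.52, adjusted p = 0.00341), or 7.58-fold. Dclk1, a kinase bound to microtubules, fell by 2.49 (SE 0.29, adjusted p = 3.42e-05), and Chst11, a chondroitin sulfotransferase, by 2.31 (SE 0.34, adjusted p = 0.000621). Hpgd, which breaks down prostaglandins, fell by 2.24 (SE 0.37, adjusted p = 0.00211). In each of R3hdml, St8sia2, Gal, Dclk1, Chst11 and Hpgd all day 8 arrays were below all day 4 arrays, and each call was kept with each array left out. AA467197, also known as Nmes1, fell by 2.69 (SE 0.39, adjusted p = 0.00052), and it fell in endothelial cells of the same days too, by 2.28 (adjusted p = 0.0121).

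The step was set beside that of endothelial cells sorted on the same days, which shares no array with it. Satellite and endothelial arrays of a day share a number in their array names in all 6 pairs of days 4 and 8, and the labels do not say what it marks. In group-centred values these pairs correlated at -0.03 to 0.14. In endothelial cells 4 genes rose, or 0.0284%, and 13 fell, or 0.0924%. Of the 236 genes called in satellite cells, 2 were also called in endothelial cells. The difference between the steps was called for 31 genes, 16 of them higher in satellite cells (0.114%) and 15 lower (0.107%). With that number as a random block 40 genes were called, the 31 among them. Chrng and Chrnd were among the 15, with a satellite step below the endothelial step by -2.89 (SE 0.42, adjusted p = 0.00346) and -2.65 (SE 0.35, adjusted p = 0.00139). Their endothelial differences were -0.19 and 0.01. The endothelial means on days 4 and 8 were 5.17 and 4.99 for Chrng. For Chrnd they were 3.835 and 3.849, near background, where a fall could not have been seen. R3hdml had the smallest adjusted p of the interaction, 5.16e-05, with a difference between steps of -3.39. Its endothelial means, 4.07 and 3.84, were near background too. Dmd was higher by 2.12 (adjusted p = 0.00856) and Olfr78 by 3.17 (adjusted p = 0.00976). For Chodl, Calcr, Myh11 and Mybpc2, which rose in satellite cells, the difference between the steps was 2.37, 1.56, 2.64 and 2.96 and was not called, with adjusted p-values of 0.287, 0.263, 0.291 and 0.349, so that these data do not show their rise to differ between the cell types. With day 8 replicate 1 of the satellite cells left out, 78 genes differed between the steps, and with day 4 replicate 2 left out, 14.

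**Figure D5:**
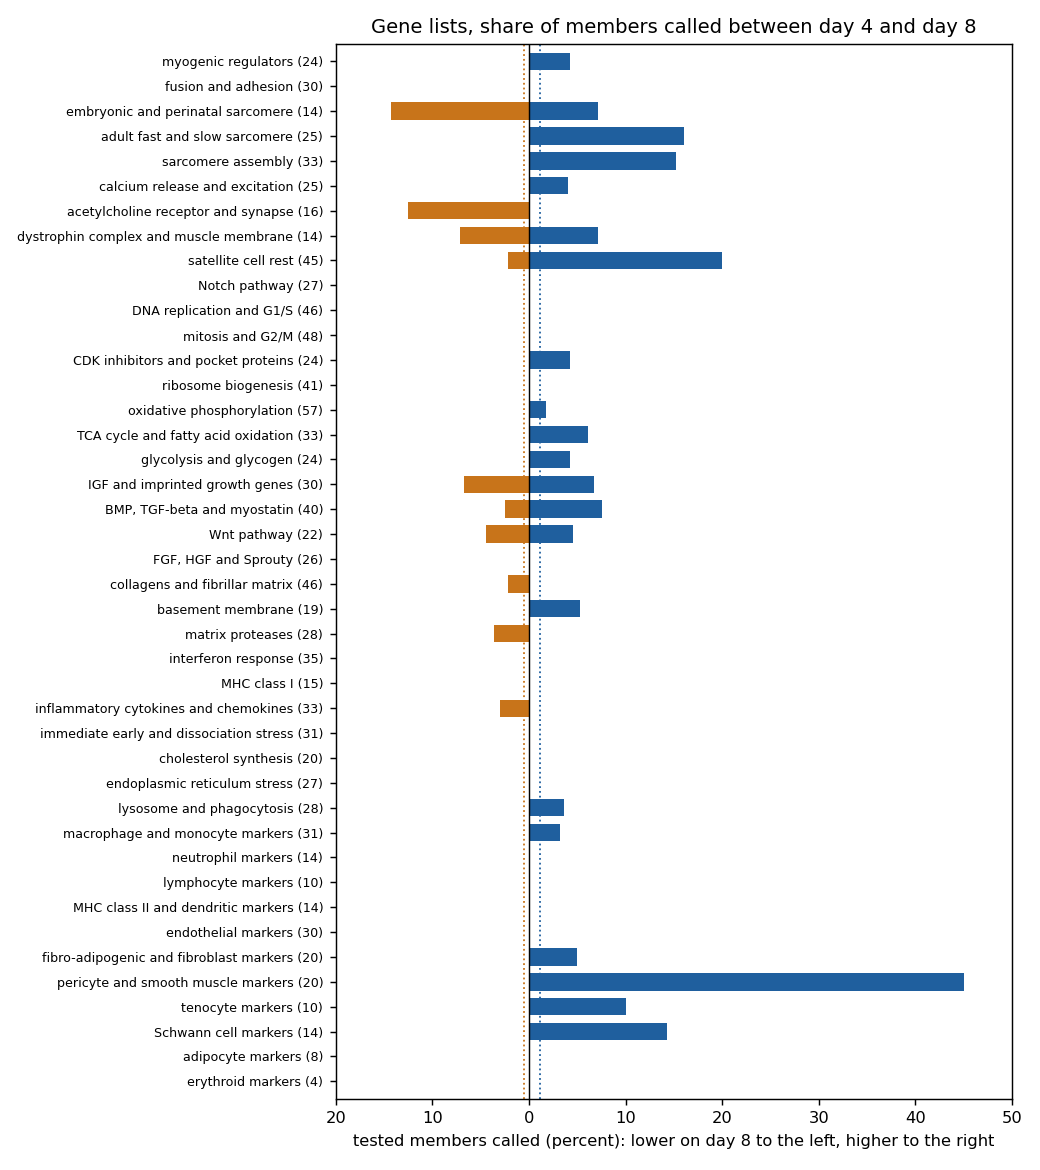
Percent of the tested members of each of 42 gene lists called higher (blue, to the right) or lower (orange, to the left) on day 8, with the number of tested members in parentheses and dotted lines at the shares of all genes, 1.16% higher and 0.519% lower. The vessel wall list reaches 45.0% and the rest list 20.0%, and neither mitosis nor DNA replication has a called member.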

How the data were processed

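RNA of 24 sorted cell samples was measured on single-colour arrays. The deposited values are log2 levels from the authors' RMA, which corrects background, quantile-normalizes the arrays together and summarises each probe set, per the submitters' processing notes; its version and the genome build are not given in the sources used here. Of 24479 probe sets, each keyed to a gene identifier, 23281 carry a symbol in the array's annotation table, and the other 1198 were not analysed here. The number of arrays limits the precision.

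Probe sets above the median of their array on 3 or more arrays were tested, keeping the brighter of those with the same symbol (14064 genes). The model, fitted to all 24 arrays with limma 3.58.1 under R 4.3.3, had a mean for each of 8 groups and 16 residual degrees of freedom, and every adjusted p is from that fit (two-sided, Benjamini-Hochberg over all genes tested) unless the sentence names another. The fit was tested on simulated data. A fold is given where both groups lie at least 1 above the highest median of the 6 arrays. The labels call the replicates biological and name no animals, so p-values rest on the spread between samples. For each gene that spread is pooled over all 8 groups, endothelial groups included, and is not that of the 6 arrays alone. Titles share replicate numbers, but same-number arrays of the 2 days correlated at -0.03 to 0.03 in group-centred values, so numbers were not used as pairs.

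Named genes are the 15 largest called rises and falls without overlap, up to 5 called genes per direction of each of 42 lists (where none was called, up to 3 with the smallest p), a set of regulators and markers given whatever their values, and the 5 largest interactions in each direction. Genes outside this rule (Chrna1, Chrnb1, Acta2, Tenm4, Gas1, Mir3070b, Mir453 and those of the cGMP pathway) were chosen after their values were seen. Myl9, shown for its promoter alone, is also outside this rule. Members and lists were chosen with earlier results of these data known. The mean level of a list is taken over all its measured genes, tested or not. Alternatives changed the filter, the arrays fitted, the centring, the variance model, array weights and blocks, and left out each array.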

Additional observations from a re-analysis of the deposited data

Results flagged for a closer look

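For 16 named genes the step from day 4 to day 8 differed between satellite and endothelial cells by the test of the difference itself, and each value here is the satellite step minus the endothelial step on the log2 scale. Of the genes that fell in satellite cells, R3hdml differed by -3.39, Chrng by -2.89, Chrnd by -2.65, Dclk1 by -2.48, Chst11 by -2.47, Ctrb1 by -2.44, St8sia2 by -2.32 and Lgr5 by -1.84, and each had an endothelial difference between -0.23 and 0.19. Endothelial day 4 means were 3.22 for Dclk1, 3.01 for Lgr5, 4.34 for St8sia2 and 4.47 for Ctrb1. These were near background, as for R3hdml and Chrnd, and a fall could not have been seen there. For Chst11 and Chrng they were 5.59 and 5.17. Of the genes that rose in satellite cells, Olfr78 differed by 3.17, Serpini1, a brain and muscle serpin, by 2.97 and Dmd by 2.12. For the other 5 the satellite difference was not called. Fjx1 differed by 4.01 and Bmp2, a BMP ligand, by 3.15, and both fell in endothelial cells, by 2.95 (limma adjusted p = 0.0141) and 2.83 (limma adjusted p = 0.00133). Btnl9 differed by -2.79 and rose in endothelial cells by 2.96 (limma adjusted p = 0.000334). Sncg differed by 3.05 and Armcx5 by -2.83, with neither step called. Groups of 3 arrays were not tested for outlying samples.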

How the results depend on the processing

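In the main fit 163 genes rose, 73 fell and 31 differed between the cell types. Fitting the 6 arrays alone gave 34 that rose and 22 that fell, the 12 satellite cell arrays gave 53 and 28, and array weights gave 287 and 125, with 76 differing between the cell types; the cause was not tested, beyond the fewer arrays that estimate the spread in the smaller fits. Leaving out each satellite array in turn gave 69 to 280 that rose, 41 to 88 that fell and 14 to 78 that differed. The replicate block, whose numbers do not pair the arrays, gave 208 that rose, 89 that fell and 27 that differed; 1 of 3 day 4 arrays correlated best with the day 8 array of its own number. The filters, median centring, the trended robust variance and the number shared in array names as a random block gave 137 to 165, 61 to 90 and 24 to 40. The difference between cell types has no value in fits of 6 or 12 arrays. Of 70 named genes called, 22 kept the call in every alternative and none reversed, and 31 kept it with each of the 6 arrays left out. The largest losses were 42 genes with 6 arrays alone, 39 with the 12 satellite cell arrays and 35 without day 8 replicate 2. Of 90 named genes not called, 14 were called in some alternative. On levels near background the array limits what can be shown.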

Other observations

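Some genes of cyclic GMP signalling, which relaxes smooth muscle, rose in the satellite cell sort from day 4 to day 8. Of the 10 tested that were looked at, picked after values were seen, 5 rose, beside 1.16% of all genes, and 5 were not called. The pick fixed that share in part, so it is no comparison with all genes. Gucy1a1 and Gucy1b1, subunits of soluble guanylate cyclase, rose by 3.03 (SE 0.58, limma adjusted p = 0.00696) and 2.73 (SE 0.55, limma adjusted p = 0.00961). Prkg1, the kinase that cyclic GMP activates, read 3.13, 3.21 and 3.04 on day 4 and 5.73, 6.05 and 6.16 on day 8, a rise of 2.85 (SE 0.49, limma adjusted p = 0.00275). Pde3a, a phosphodiesterase, rose by 1.99 (SE 0.31, limma adjusted p = 0.00122), and Pde5a, which breaks down cyclic GMP, was not called (difference 1.22, SE 0.36, limma adjusted p = 0.0987). Mrvi1, a target of the kinase, was not called (difference 1.35, SE 0.35, limma adjusted p = 0.0501). Neither were the natriuretic peptide receptors Npr1 and Npr2 (differences 0.40 and 0.24, limma adjusted p = 0.798 and 0.834) or Pde3b (difference -0.51, limma adjusted p = 0.52). Gucy1a2, another cyclase subunit, rose by 1.79 (SE 0.46, limma adjusted p = 0.0487), a call lost when any array but day 8 replicate 1 was left out (adjusted p up to 0.26). The call of Gucy1b1 was lost without day 4 replicate 1 or day 8 replicates 2 or 3 (adjusted p up to 0.085), and those of Gucy1a1, Prkg1 and Pde3a were kept with each array left out. Vessel wall markers rose on the same arrays, and their part in these values was not tested.

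The risen noncoding RNAs Meg3 and Rian belong to one imprinted cluster on chromosome 12, and its other genes were looked at after that was seen. From Dlk1 to Mirg the RefSeq table lists 89 genes, of which 63 are on the array and 22 were tested. Of the 22, 4 rose (Meg3, Rian, Mir3070b and Mir453) and none fell, beside 1.16% and 0.519% of all genes tested. Mir453 was near background on day 8 replicate 1, at 3.44. The differences of 18 lay above 0, with a median of 0.63 beside -0.01 over all genes tested. Meg3 and Rian, whose rise prompted the look, are among the 22. The share that rose and the median were thus partly fixed by the choice. Mirg, at the far end of the cluster, was not called (difference 0.78, SE 0.31, limma adjusted p = 0.25). Neighbouring genes of this cluster can be read from long shared transcripts, so they are not independent measurements.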
